A study of Rattus norvegicus with 6 samples.

Results

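The 10 sarcomeric myosin genes reported here, from the rat Achilles tendon dissection, were part of 14217 genes with at least 1 single-gene probe set. They were 6 heavy chains (Myh1, Myh2, Myh3, Myh4, Myh7 and Myh8) and 4 light chains (Myl1, Myl2, Myl3 and Myl4). Other sarcomeric chains, such as Myh6 and Myh13, are not among these 10. The 10 genes were chosen by gene symbol, and each gene was read from its brightest single-gene probe set. Achilles tendons were taken from rats on post-natal day 7 and on post-natal day 1, with 3 arrays of each age. Each array carried RNA from at least 2 animals, and the labels give no strain, sex, genotype or treatment for either age. The labels do not say that arrays of the same number share a litter or a day, so the tests measure the spread between these pools.

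Myosin is the motor of the sarcomere, built from a pair of heavy chains that carry the motor domain and from essential and regulatory light chains that wrap the lever arm. Muscle fibres use different chains at different ages and speeds: Myh3 is the embryonic and Myh8 the perinatal heavy chain, Myh2, Myh1 and Myh4 are the heavy chains of adult fast fibres, and Myh7 is the slow and ventricular heavy chain. Among the light chains, Myl4 is the essential chain of embryonic and atrial muscle, Myl1 that of fast fibres and Myl3 that of slow and ventricular muscle, while Myl2 is the slow and ventricular regulatory chain. Tendon cells are not known for these chains, and the tissue was labelled as tendon. Its tendon genes were bright, with the collagen gene Col1a2 at 18834, 15583 and 14726 on the day 7 arrays, against 12573, 14090.4 and 10000.2 on the day 1 arrays. Muscle fibre genes were bright as well, with the muscle creatine kinase Ckm at 3466, 5483 and 2944 on the day 7 arrays, against 7543, 6033 and 8361 on the day 1 arrays. In such bulk samples fewer muscle cells and less RNA per muscle cell cannot be told apart.

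Of the 10 myosin genes, the 3 developmental ones (Myl4, Myh3 and Myh8) fell and the adult fast heavy chain Myh2 rose by day 7, while the other 6 did not pass the test. The test was limma on log2(intensity + 1), with a call at a Benjamini-Hochberg adjusted p under 0.05 over all 31042 probe sets. Over all genes, 3.15% were called lower and 1.93% higher, and the median log2 change was -0.01. Each called myosin gene was read from the only single-gene probe set it had, so no second probe set served as a check. With 1 array left out, the number of the 10 genes called lower was 1 for each day 1 array. For day 7 it was 0 when replicate 1 was left out, 2 when replicate 2 was and 1 when replicate 3 was. At an unadjusted limma p under 0.05, 4 of the 10 were lower and 1 higher with all arrays, against 17.0% lower and 10.6% higher of all genes. Without day 7 replicate 1, 3 of the 10 were lower at that p, against 13.1% of all genes. The 1 call of a rise was kept when day 1 replicate 1 or 2 was left out and lost with any of the other 4. Over all genes, leaving out day 7 replicate 1 gave 0 lower and 4 higher at the adjusted threshold (1869 and 1136 at an unadjusted p under 0.05).

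**Figure D1:**
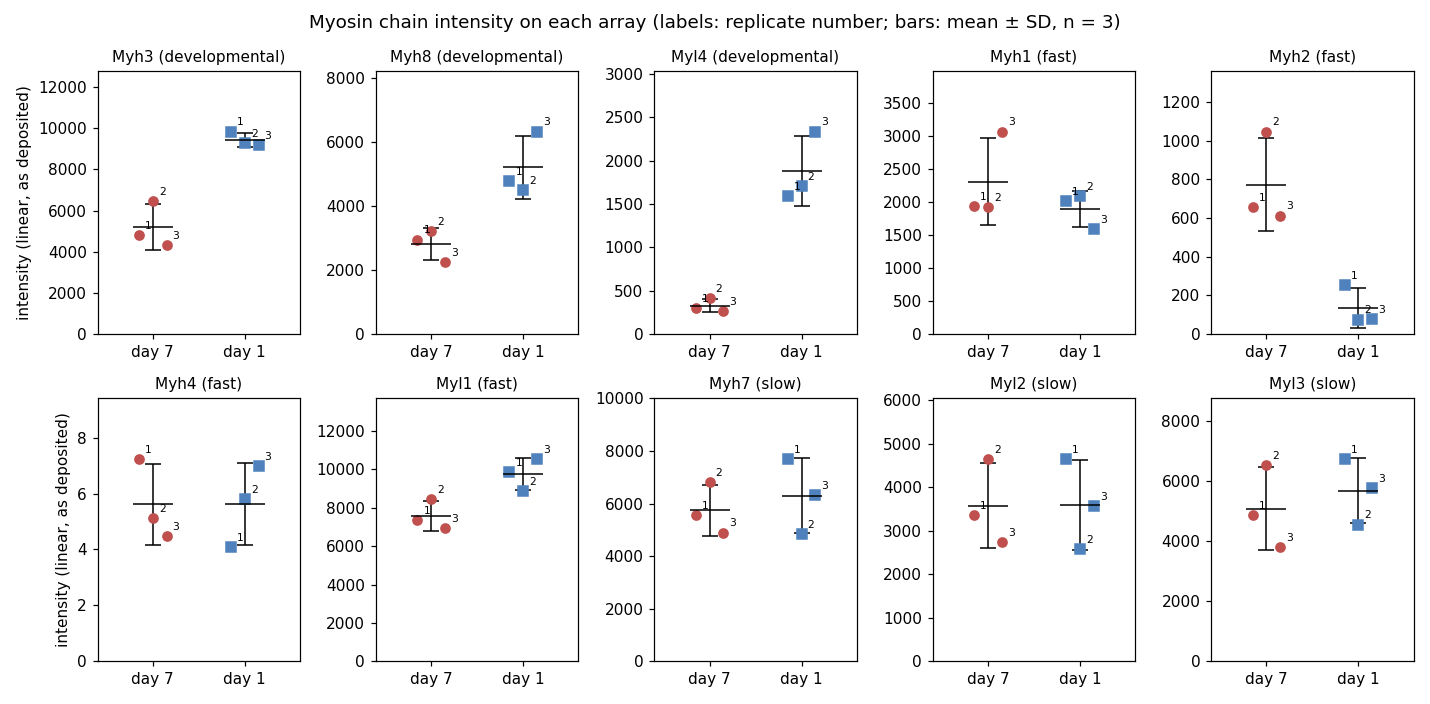
Intensity of each myosin gene on a linear axis from 0, with the 3 day 7 arrays (circles) left of the 3 day 1 arrays (squares), replicate numbers beside the points, and mean ± SD. The day 7 points of Myh3, Myh8 and Myl4 lie below and those of Myh2 above all day 1 points, and Myh4 stays under 8 on every array.

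Myl4, the embryonic and atrial essential light chain, had intensities of 297, 416 and 270.02 on day 7 replicates 1, 2 and 3, against 1593, 1711 and 2337 on day 1. All day 7 arrays lay below all day 1 arrays, as in 19.1% of all genes. The means were 328 ± 77.9 on day 7 and 1880.1 ± 399.9 on day 1 (SD, n = 3 each). Fold changes here come from the means of log2 values and not from the means of intensities, and Myl4 was 5.74-fold lower (log2 change -2.52, SE 0.20, limma adjusted p = 0.00983). Of the 14217 genes, 3 had a more negative log2 change. The call was lost without day 7 replicate 1 (log2 change -2.46, limma adjusted p = 0.0679), while leaving out any of the other 5 arrays kept it (log2 change -2.71 to -2.35).

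Myh3, the embryonic heavy chain, read 4831, 6463 and 4325 on day 7 and 9833, 9276 and 9169.6 on day 1. The day 1 arrays lay close together and above every day 7 array. The means were 5206 ± 1117 on day 7 and 9426 ± 356 on day 1 (SD, n = 3 each), and by the means of log2 values the level was 1.84-fold lower (log2 change -0.88, SE 0.16, limma adjusted p = 0.0313). The call held without day 7 replicate 2 (limma adjusted p = 0.0183). It was lost when day 1 replicate 1, 2 or 3 was left out (limma adjusted p = 0.114, 0.0541 and 0.0799) and when day 7 replicate 1 or 3 was (0.128 and 0.0745). Myh3 was among the brightest genes, in an array set whose highest probe sets read between 14372 and 19077, and saturation was not tested.

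Myh8, the perinatal heavy chain, read 2950.2, 3219.85 and 2239.99 on day 7 and 4771, 4503 and 6317 on day 1. Again no day 7 array reached a day 1 array. The means were 2803 ± 506 on day 7 and 5197 ± 979 on day 1 (SD, n = 3 each), and by the means of log2 values the level was 1.85-fold lower (log2 change -0.89, SE 0.18, limma adjusted p = 0.0433). This call was lost without any 1 of the 6 arrays. The limma adjusted p was 0.119, 0.0518 and 0.107 with day 1 replicate 1, 2 or 3 left out, and 0.135, 0.0510 and 0.0974 with day 7 replicate 1, 2 or 3 left out. The log2 change stayed between -0.999 and -0.74 in these fits.

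Myh2, the heavy chain of fast oxidative fibres, moved the other way. It read 658, 1047 and 613 on day 7, against 255, 75.4 and 77.2 on day 1. Day 1 replicate 1 stood above the other day 1 arrays, but below every day 7 array. Of all genes, 14.0% had their day 7 arrays all above their day 1 arrays. The means were 772 ± 239 on day 7 and 136 ± 103 on day 1 (SD, n = 3 each), where day 1 replicate 1 raises the day 1 mean, and by the means of log2 values the level was 6.52-fold higher (log2 change 2.71, SE 0.45, limma adjusted p = 0.0277). Among all genes, 13 had a more positive log2 change. Without day 1 replicate 1 the log2 change was 3.28 (limma adjusted p = 0.0302), and leaving out day 1 replicate 2 gave 2.41 (0.0491). The call was lost when day 1 replicate 3 was left out (2.43, limma adjusted p = 0.0758) and when day 7 replicate 1, 2 or 3 was (2.80, 2.47 and 2.85, limma adjusted p = 0.112, 0.0545 and 0.0683).

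The start regions of the 4 called genes are shown because these members moved in opposite directions although 3 of them lie in one gene cluster. In RefSeq's annotation of rat assembly GRCr8, Myh3, Myh2, Myh1, Myh4 and Myh8 follow each other in this order on chromosome 10, with no other protein-coding gene between them. The embryonic and perinatal genes that fell thus flank the adult fast genes, of which Myh2 is the next coding neighbour of Myh3. The windows run from 250 bases before to 50 bases after the gene start in RefSeq (GRCr8, + strand, 5′ to 3′), at chr10:52268935-52269234 for Myh3, chr10:52462259-52462558 for Myh8, chr10:89975900-89976199 for Myl4 and chr10:52355489-52355788 for Myh2. Capitals mark TATAAA on the strand shown and CANNTG, the E-box core that myogenic factors bind, which reads the same on both strands.
Myh3: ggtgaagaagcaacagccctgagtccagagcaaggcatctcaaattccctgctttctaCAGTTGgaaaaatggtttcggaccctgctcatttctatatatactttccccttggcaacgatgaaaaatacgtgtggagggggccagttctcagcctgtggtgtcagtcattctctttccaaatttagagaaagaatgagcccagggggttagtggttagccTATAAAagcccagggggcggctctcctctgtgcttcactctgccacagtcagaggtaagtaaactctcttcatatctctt
Myh8: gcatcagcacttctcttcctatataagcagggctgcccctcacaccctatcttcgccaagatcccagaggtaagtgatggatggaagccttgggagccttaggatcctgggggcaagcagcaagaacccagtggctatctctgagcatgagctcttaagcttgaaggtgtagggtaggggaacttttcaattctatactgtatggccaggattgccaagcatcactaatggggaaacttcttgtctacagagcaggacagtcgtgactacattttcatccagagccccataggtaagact
Myl4: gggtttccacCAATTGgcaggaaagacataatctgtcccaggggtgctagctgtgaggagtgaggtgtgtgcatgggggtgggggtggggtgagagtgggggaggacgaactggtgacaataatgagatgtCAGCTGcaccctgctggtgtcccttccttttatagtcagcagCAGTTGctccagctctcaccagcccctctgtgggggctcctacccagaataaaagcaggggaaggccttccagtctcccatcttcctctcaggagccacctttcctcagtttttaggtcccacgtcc
Myh2: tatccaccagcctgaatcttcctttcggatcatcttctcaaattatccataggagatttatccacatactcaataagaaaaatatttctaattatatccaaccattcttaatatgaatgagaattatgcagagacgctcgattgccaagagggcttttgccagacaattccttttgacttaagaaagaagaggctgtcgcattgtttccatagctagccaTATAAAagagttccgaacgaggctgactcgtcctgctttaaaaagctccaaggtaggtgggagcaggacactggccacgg

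TATAAA stood 30 bases before the start in both Myh3 and Myh2, and these letters were in neither the Myh8 nor the Myl4 window. Among 33469 RefSeq windows of this length, 8.8% held TATAAA on the strand shown. CANNTG was found in 1 place in Myh3 and 3 places in Myl4, in neither Myh8 nor Myh2, and in 72.1% of all windows. The Myh8 window may not be comparable with the others. It holds tatataa near its 5′ end, and an 11-base run that lies after the start in Myh3 lies before the start in Myh8. Where transcription of Myh8 begins was not tested, so its missing matches are not read as a difference between the genes. Of the 10 windows that matched 9 of the members (Myl1 has 2), 4 held TATAAA and 7 held CANNTG. A match to the MEF2 consensus on either strand was found in 3 of these 10 windows (Myh1, Myh4 and 1 of Myl1), against 3.3% of all windows, and a CArG box on either strand in 2 (Myh4 and Myl3), against 1.6%. CATTCC, the MCAT core, searched on both strands, was in 3 (Myh1, Myh4 and Myl3), against 14.2%.

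The 3 adult fast heavy chains share a 20-base run in these windows, which is shown because 1 of these 3 genes passed the test. The run begins 170 bases before the start in Myh2, 166 in Myh1 and 177 in Myh4, and 5 of the 33469 windows held it on either strand. Besides these 3 genes it was found at an uncharacterised RNA gene that lies between Myh1 and Myh4. The stretches below are 60 bases each on the + strand of GRCr8, at chr10:52355549-52355608 for Myh2, chr10:52384726-52384785 for Myh1 and chr10:52421951-52422010 for Myh4, with the shared run in capitals.
Myh2: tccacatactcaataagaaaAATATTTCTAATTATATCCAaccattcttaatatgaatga
Myh1: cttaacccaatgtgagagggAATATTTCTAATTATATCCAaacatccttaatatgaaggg
Myh4: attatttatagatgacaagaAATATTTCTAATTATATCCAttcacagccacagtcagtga

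Myh1, the IIx heavy chain of adult fast fibres, was bright at both ages, with 1935, 1925 and 3069 on day 7 and 2014, 2088 and 1590.5 on day 1. The groups overlapped, since day 7 replicates 1 and 2 lay below the higher pair of day 1 arrays. The log2 change was 0.26 (95% interval -0.21 to 0.73, limma adjusted p = 0.502). The other 4 probe sets of Myh1 had every day 7 array above every day 1 array, with log2 changes between 0.30 and 0.57 (limma adjusted p from 0.174 to 0.343). In all 5 probe sets day 7 replicate 3 was the brightest array. The heavy chain genes are close copies of each other, and cross-hybridisation between them was not tested, which also limits the called Myh2, Myh3 and Myh8. A further 3 probe sets that the annotation pairs with several myosin genes were not used.

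Myh4, the heavy chain of the fastest glycolytic fibres, read 7.24, 5.11 and 4.49 on day 7 and 4.09, 5.81 and 6.98 on day 1. These values lie near the 3.74 to 4.76 of the bacterial trp control probe sets, so no fold change is given for it, and its single probe set gave no clear signal at either age. Its start window, which carries the 20-base run, held 2 TATAAA matches.

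Myl1, the essential light chain of fast fibres, read 7353, 8473 and 6962 on day 7 and 9845, 8889 and 10552 on day 1. Every day 7 array lay below every day 1 array. The means were 7596 ± 784 on day 7 and 9762 ± 835 on day 1 (SD, n = 3 each), with a log2 change of -0.36 (95% interval -0.65 to -0.08) that did not pass (limma adjusted p = 0.139). Of the adult fast chains, 1 heavy chain rose, and 2 heavy chains and this light chain were not called.

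The slow and ventricular chains overlapped between the ages in all 3 genes, and none had an unadjusted limma p under 0.05. Myh7, the slow heavy chain, read 5555, 6805 and 4896 on day 7 and 7701, 4852 and 6332 on day 1, with a log2 change of -0.12 (95% interval -0.57 to 0.33, limma adjusted p = 0.762). Myl2, the slow regulatory light chain, read 3366, 4644 and 2735 on day 7 and 4658, 2578 and 3567 on day 1, with a log2 change of -0.0011 (95% interval -0.59 to 0.59, limma adjusted p = 0.9985). Myl3, the slow essential light chain, read 4881, 6547 and 3799.9 on day 7 and 6744, 4554 and 5767 on day 1, with a log2 change of -0.18 (95% interval -0.69 to 0.33, limma adjusted p = 0.672). All 3 genes ranked the arrays in the same order. On day 7 replicate 2 was highest and replicate 3 lowest, and on day 1 replicate 1 was highest and replicate 2 lowest. The day 7 order was not particular to them, since Myh3, Myh8, Myl4, Myh2 and Myl1 had it too. The median of the other muscle genes also had this day 7 order, and some of those genes kept the order at both ages. A second probe set of Myh7 was dim (111, 164 and 53.2 on day 7, and 205, 83.9 and 142 on day 1). It kept the order of the 3 slow chains at both ages. A second probe set of Myl2 read at most 13.7 on any array.

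The genes also differed in how they varied from array to array. Likeness was taken as the root mean square distance between log2 profiles over the 6 arrays, each centred on its own mean. Of the 45 pairs of members, the 3 closest were those of the slow chains, at 0.10 for Myh7 with Myl3, 0.12 for Myh7 with Myl2 and 0.12 for Myl2 with Myl3. The embryonic and perinatal heavy chains Myh3 and Myh8 came next, at 0.19. Since all genes were read on the same 6 arrays, these distances describe the arrays and are no test.

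**Figure D2:**
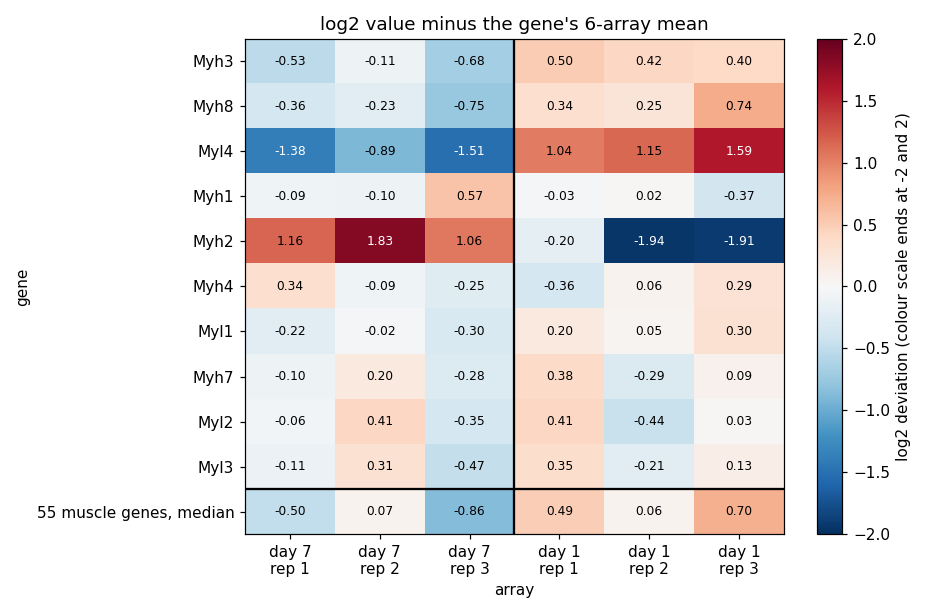
Log2 value of each myosin gene on each array minus the gene's mean over the 6 arrays, with the median over 55 other muscle genes in the bottom row and the colour scale ending at -2 and 2. Myl4 and Myh2 show the largest deviations, of opposite sign, and Myh7, Myl2 and Myl3 share one pattern over the arrays.

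Other muscle genes were lower on most day 7 arrays. Over 55 measured genes of thick filament partners, thin filament and Z disc, and muscle enzymes and membranes, with no member among them, 6 fell and none rose (limma, adjusted p under 0.05), and 52 had a negative log2 change. At an unadjusted limma p under 0.05, 42 were lower and 0 higher, against 17.0% and 10.6% of all genes. Their median log2 change was -0.85, against -0.01 over all genes, and their summed intensity ran from 45259 to 76574 on day 7 and from 75614.5 to 105674 on day 1. Relative to each gene's 6-array mean, the median muscle gene stood at -0.50, 0.07 and -0.86 on day 7 replicates 1, 2 and 3, against 0.49, 0.06 and 0.70 on day 1 replicates 1, 2 and 3. The arrays numbered 2 of both ages therefore carried like levels of these genes. Without both of them, 38 of the 55 muscle genes were called lower, against 609 of all genes. Without day 7 replicate 2 alone 22 were, against 377 of all genes. These arrays are named here for their levels of the same genes, so the higher counts are no test. With day 7 replicate 1 or 3 dropped, the muscle count was 0 in both fits, against 0 and 79 of all genes. Dropping day 1 replicate 1, 2 or 3 gave 1, 5 and 2 muscle genes, against 37, 382 and 107 of all genes. In each of these fits fewer of all genes were called lower than the 448 with every array kept.

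Set against this muscle median, the myosin genes took different positions. Myh3 and Myh8 changed by -0.03 and -0.04 relative to it on the log2 scale, with overlapping arrays (exact permutation p = 0.9 and 0.8), and the sign turned without both arrays numbered 2 (0.24 and 0.20). Myl4 changed by -1.67 relative to it, with each day 7 array below each day 1 array, as in 0.612% of all genes on this scale, and its change was more negative than that of each of the 55 genes. Myh2 stood 3.56 above it, Myl2 0.85, Myh7 0.73 and Myl3 0.67, and in these 4 genes each day 7 array lay above each day 1 array. So did 46.2% of all genes on this scale, since the muscle median itself was lower on day 7, and 4 of 10 is near that share. The same shift makes the 0.612% small. Before the subtraction, 19.1% of all genes had each day 7 array below each day 1 array. For Myl4 and these 4 genes the two-sided exact permutation test gave p = 0.1, the smallest that 3 against 3 arrays allow (0.2 adjusted over the 10 genes). Myh1 stood 1.11 and Myl1 0.49 above it, with overlapping arrays (exact permutation p = 0.2 for both), and Myh4, near background, is left out here. These differences describe change relative to the muscle median and not whether a gene kept its level. None could reach an exact permutation p under 0.1, so unequal change between genes was not established.

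**Figure D3:**
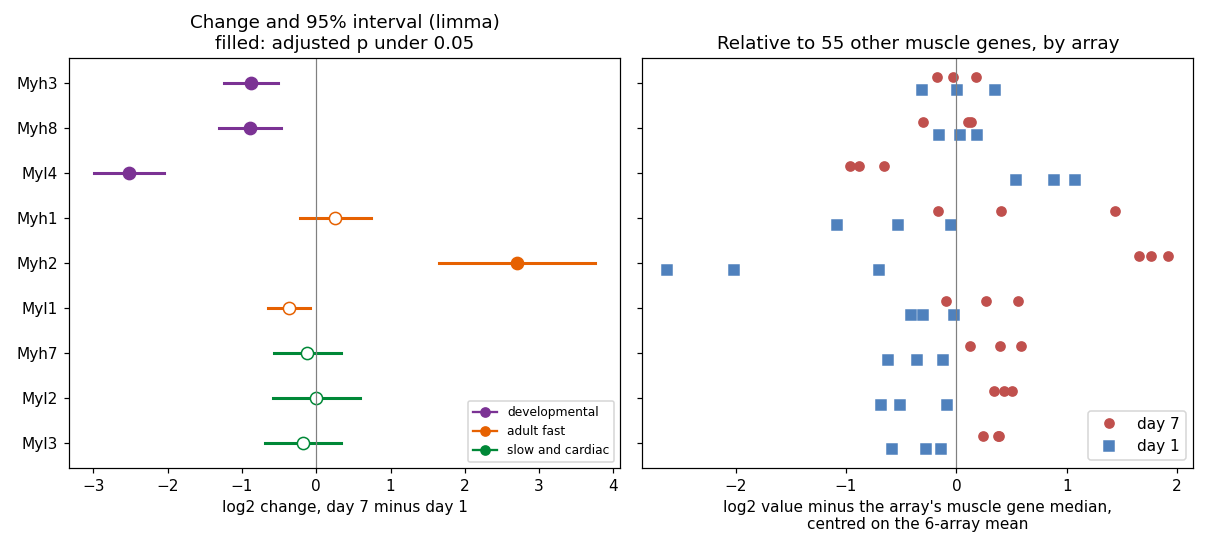
Left, log2 change of each myosin gene other than Myh4, day 7 minus day 1, with its 95% interval and filled points for an adjusted p under 0.05. Right, each array's log2 value minus that array's median over 55 other muscle genes, centred per gene, with day 7 as circles and day 1 as squares. Myh3 and Myh8 overlap on the right, Myl4 does not, and Myh2, Myh7, Myl2 and Myl3 lie higher on day 7.

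The partners of myosin in the thick filament and M line had a median log2 change of -0.87 over 13 measured genes, of which 3 fell and none rose (11 lower and 0 higher at an unadjusted limma p under 0.05). Mybph, a relative of myosin binding protein C, fell by 1.90 on the log2 scale (limma adjusted p = 0.0180), with 61.2, 77.6 and 52.6 on day 7 and 183, 204 and 361 on day 1. The methyltransferase Smyd1, which acts with the myosin folding machinery of the fibre, fell by 1.34 (limma adjusted p = 0.0345), and the obscurin relative Obsl1 fell by 0.83 (0.0190). The M line protein Myom2 had a log2 change of -1.15 (limma adjusted p = 0.0548).

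The thin filament and Z disc list held 24 measured genes, with 2 lower and 0 higher by the test, 18 and 0 at an unadjusted limma p under 0.05, and a median log2 change of -0.74. They were the Z disc protein Pdlim3 (-1.28, limma adjusted p = 0.0416) and Synpo2l (-1.11, 0.0440), whereas Myoz1 (-1.05, 0.0711) and the tropomyosin Tpm1 (-0.55, 0.0787) did not pass. Of 18 muscle enzymes and membrane proteins, the calcium release channel Ryr1 fell (log2 change -1.08, limma adjusted p = 0.0462) and none rose, with 13 lower and 0 higher at an unadjusted limma p under 0.05 and a median of -0.88. Close to the threshold were the glycolytic enzymes Pgam2 (-1.22, limma adjusted p = 0.0515) and Eno3 (-1.05, 0.0557) and the calcium channel subunit Cacna1s (-1.15, 0.0596).

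Transcription regulators of fibre type had a median log2 change of -0.10 over 13 measured genes, with 2 lower and 0 higher by the test and 4 and 2 at an unadjusted limma p under 0.05, where 17.0% of all genes were lower and 10.6% higher. Mef2c, a MADS box factor that activates sarcomere genes, read 843, 1046 and 525 on day 7 and 1916, 1620.2 and 2259.8 on day 1 (log2 change -1.31, limma adjusted p = 0.0362). Eya1, a transcriptional coactivator, fell by 1.40 (limma adjusted p = 0.0463). Tead4 and Vgll2, partners in transcription, had log2 changes of -0.85 and -1.10 (limma adjusted p = 0.0740 and 0.0950).

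**Figure D4:**
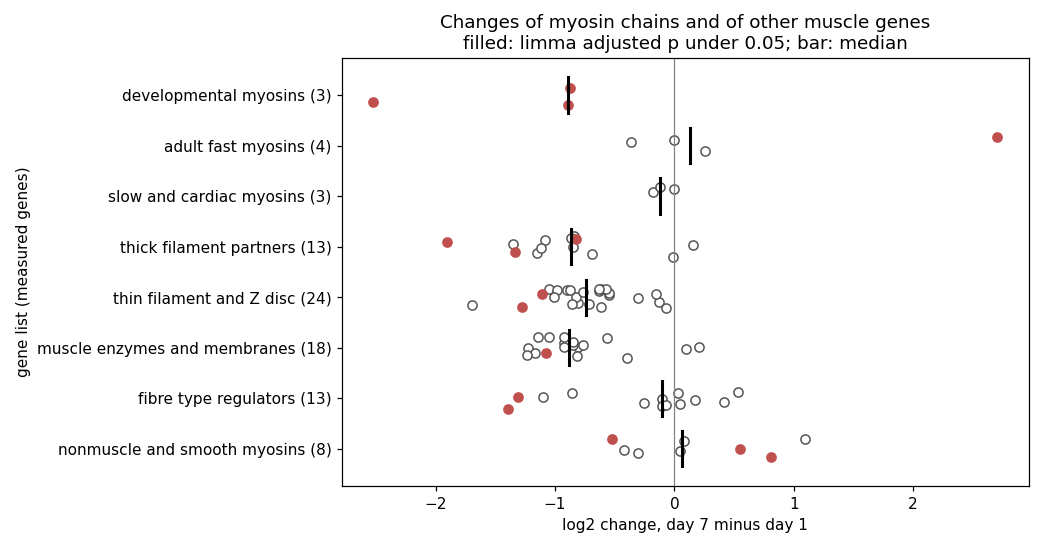
Log2 change, day 7 minus day 1, of each measured gene in 8 lists, with filled points for an adjusted p under 0.05 and a bar at each list's median (vertical scatter within a list has no meaning). The 3 developmental myosins lie below 0, the 3 slow and cardiac ones lie near 0, and Myh2 is the rightmost point.

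Myosin chains outside the 10 genes and the myosin light chain kinases together gave 3 calls. Of 5 measured striated chains and kinases none passed limma, nor did any have an unadjusted p under 0.05, at summed intensities of 113 to 155 on day 7 and 120 to 170 on day 1: the log2 change was -0.78 for the atrial heavy chain Myh6 (limma adjusted p = 0.286), -0.39 for Mylk3 (0.450), 0.12 for Myh13 (0.604) and -0.10 for Mylk2 (0.778). Mylpf, the fast regulatory light chain, was not analysed here. Of 8 measured nonmuscle and smooth muscle chains and their kinase, 2 rose and 1 fell, with a median of 0.06. The regulatory light chain Myl12b rose by 0.55 on the log2 scale (limma adjusted p = 0.0338), the light chain kinase Mylk rose by 0.81 (0.0477) and the nonmuscle heavy chain Myh10 fell by 0.52 (0.0341). The smooth muscle heavy chain Myh11 had a log2 change of 1.09 (limma adjusted p = 0.0546).

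Markers of other cell types on the same arrays moved with age as well, and their part in the myosin results was not tested. Heart muscle markers were dim, with 8 genes whose sum lay from 72.7 to 73.8 on day 7 arrays and from 73.7 to 103 on day 1 arrays, and none was called by limma (1 lower and 1 higher at an unadjusted p under 0.05); Tnni3, the cardiac troponin, had a log2 change of -1.29 (limma adjusted p = 0.0555). Of 2 measured satellite cell genes, the muscle cadherin Cdh15 fell by 1.53 on the log2 scale (limma adjusted p = 0.0332). Of 8 fat cell genes 7 rose, with a median of 2.40 and sums of 2958 to 6222 on day 7 and 1548 to 1766 on day 1, led by Adipoq, Plin1 and Pck1 (log2 change 4.84, 4.78 and 4.28). Of 10 tendon cell genes Dcn (0.79, limma adjusted p = 0.0277) and Comp (2.28, 0.0285) rose, of 5 Schwann cell genes S100b rose (1.27, 0.0443) and of 5 cartilage genes Cytl1 rose (1.33, 0.0190). Of 6 smooth muscle cell genes none was called by limma, with 4 lower and 2 higher at an unadjusted p under 0.05. No marker was listed at 0 on any array, but this does not mean that each was detected. The heart muscle markers Ryr2 and Tbx5 read near the trp controls (3.74 to 4.76). On day 1 Adipoq read 8.47, 9.72 and 13.5 and Plin1 read 6.99, 6.13 and 12.3, so their log2 changes rest on low values.

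Outside the myosin family, the genes whose profiles lay closest to a called member, among 2020 genes with a range of at least 1 on the log2 scale, differed from member to member. Nearest to Myl4 were the connexin Gja3 and the myoblast fusion protein Mymk, at root mean square distances of 0.16 and 0.19 over the 6 arrays. Nearest to Myh2 were Rpl3l, a ribosomal protein of striated muscle, and the chemokine Ccl21, at 0.53 and 0.60. Myh3 had Dok5 and Echdc2 next to it, at 0.06 and 0.07, and Myh8 had Pwwp3b and Ptges3l, at 0.05 and 0.06. The members without a call had ranges under 1 themselves, from 0.60 for Myl1 to 0.95 for Myh1. Genes as flat as these members were therefore not among the candidates. Among the 2020 genes, the nearest to the slow chains were Vps13c and Siah2 for Myh7 (0.14 and 0.17), Gstm7 and Coq8a for Myl2 (0.10 and 0.13), and Siah2 and Wnk2 for Myl3 (0.11 and 0.12). For the fast chains they were Pmepa1 and Ap5z1 for Myh1 (0.06 and 0.08) and Aasdhppt and Mcrs1 for Myl1 (0.13 in both), while Myh4, near background, had Sbno2 and Opcml (0.18 and 0.19).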

How the data were processed

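Rat Achilles tendon RNA from 3 arrays of day 7 and 3 of day 1 was read from the deposited table, a matrix of linear intensity values. Per the submitters' processing notes, MAS5 and RMA were among the tools, and how the deposited intensity values were background-corrected and scaled is not given in the sources used here. Array medians lay between 20.5 and 21.1. The 57 control probe sets of 31099 stayed out of the fit, which covered 31042. Annotation paired 20826 with 1 gene, 436 with several and 9780 with none, and 20758 of the 20826 matched RefSeq (GRCr8) by gene identifier.

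Values were transformed to log2(value + 1) without further normalization and fitted with limma 3.58.1 (R 4.3.3; lmFit, eBayes, two-sided, Benjamini-Hochberg over all probe sets). SE is the moderated standard error. The muscle comparison subtracted each array's median over 55 muscle genes and used an exact permutation test. Sequences and motifs were read from RefSeq windows, with no genome build given for the array. Named genes were all members, up to 4 genes with the smallest adjusted p of each muscle list and 3 of each cell type list, and the 2 most alike genes of each member. Col1a2 and Ckm were named as tissue checks after their values were seen. The members, lists and alternatives were chosen with earlier results of these data known. Alternatives were 2 normalizations, a pseudocount of 16, a brightness filter, the mean of probe sets, other variance models, array weights, a replicate block, left-out arrays and a muscle covariate.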

Additional observations from a re-analysis of the deposited data

How the results depend on the processing

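Over the alternatives, the call of Myl4 held in 14 of 16, that of Myh3 in 9, that of Myh2 in 8 and that of Myh8 in 7, and the log2 change of none of these 4 changed sign. Of the 10 myosin genes, 3 were lower and 1 higher as reported. The number lower was 2 with a pseudocount of 16, where Myh8 was not called (limma adjusted p = 0.0703), and 1 with the replicate block. It was 0 with the muscle median as a covariate and 0 to 2 without 1 array. The number higher was 0 with a pseudocount of 16, with the replicate block, without both arrays numbered 2 and with the muscle covariate, and 0 to 1 without 1 array. The labels do not say that arrays of the same number share a litter or a day. Deviations of such arrays had correlations of 0.05, -0.25 and -0.14, which cannot settle this. The block called 8 genes lower and 25 higher of all genes, against 448 and 274. With it Myh3, Myh8 and Myh2 were not called (limma adjusted p = 0.0869, 0.134 and 0.0734). Array weights gave 897 and 538, the pseudocount of 16 gave 182 higher, and the covariate, which overlaps with age, gave 1 and 2. Without 1 array the counts ran from 0 to 382 lower and from 4 to 271 higher. The 55 muscle genes had 6 lower as reported, 2 with the pseudocount of 16, 12 with the brightness filter and 10 with the mean of probe sets. They had 11 lower with an intensity trend, 18 with array weights and 0 with the block or the covariate. Without 1 array the number was 0 to 22. Without both arrays numbered 2 it was 38, against 609 of all genes. Those arrays were named for their levels of the same muscle genes, so the 38 is no test. Of the log2 changes, those that changed sign belonged to genes with no call. The log2 change of Myl2 was 0.0213 after quantile normalization and 0.0251 with the mean of probe sets. With the muscle covariate the log2 change was -0.27 for Myh1, 0.38 for Myh7, 0.72 for Myl2 and 0.48 for Myl3. Without 1 array it ran from -0.29 to 0.0402 for Myh7, from -0.22 to 0.21 for Myl2 and from -0.38 to 0.00959 for Myl3. Relative to the muscle genes the called Myh3 and Myh8 did change sign: Myh3 ran from -0.19 to 0.14 and Myh8 from -0.14 to 0.10 without 1 array, and they stood at 0.24 and 0.20 without both arrays numbered 2. The cause of these shifts was not tested. Myh4, near background, was left out of these log2 changes after its values were seen. Signal near the trp controls limits Myh4 and the dim probe set of Myl2.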
